A study of Mus musculus with 2 samples.

Results

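The genes described here are the matrix metalloproteinases (MMP), the ADAMTS proteases with the related ADAMTSL proteins, and the tissue inhibitors of metalloproteinases (TIMP). They were taken by symbol from the array's probe annotation, which gave 54 probes of 48 genes among 20686 named probes of 19318 genes. The set holds 21 MMP genes, 18 ADAMTS genes, 5 ADAMTSL genes and 4 TIMP genes. Of the family genes in the RefSeq table, Adamts2, Mmp15 and Mmp27 had no named probe and were not analysed here.

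RNA of whole liver from mice aged 24 weeks was measured on 2 single-colour arrays. The CKO array held a Twist2-Cre/A20fl/fl liver, in which Cre acts on floxed alleles of A20, the NF-kB inhibitor encoded by Tnfaip3. The control array held a Twist2-Cre liver without floxed A20. Both genotypes carry the Cre, which is driven from the Twist2 gene and acts in cells of mesenchymal lineage. How many animals each RNA came from is not stated in the labels. With 1 array per genotype there was no error across animals, no test and no replicate check, so every difference below is one between these 2 arrays. The Tnfaip3 probe read 38 in the CKO liver and 41 in the control liver in the authors' deposited intensities; which exons it reads is not known, so it does not check the deletion. All 5 hepatocyte markers were above background on both arrays, among them Alb, with deposited intensities of 36770 in the CKO and 37445 in the control liver.

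MMPs are zinc proteases that are made as inactive precursors and cut collagens, elastin and other matrix proteins. ADAMTS proteases are secreted, carry thrombospondin-type repeats and cut proteoglycans, procollagens and von Willebrand factor, while ADAMTSL proteins have the repeats without a protease domain. TIMPs bind the active site of these enzymes. In liver injury, activated stellate cells and macrophages are known sources of several of them, and the balance of MMPs to TIMPs bears on whether scar matrix is kept or removed.

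Sequences are given for 4 genes. Timp1, Mmp12 and Mmp13 were above background on the CKO array only, with limits of 2 SD and of 3 SD over the mean of the blank spots. Timp2 and Adamts13 were so at 2 SD and not at 3 SD. With the highest negative control spot as the limit, Timp1 alone was on the CKO side. Timp3 had the lowest ratio, on the log2 scale with an offset of 50, of the members measured on both arrays. The 250 bases before the annotated start of each gene are shown so that these promoters can be compared; they come from RefSeq (build GRCm38.p6, all on the plus strand). The windows are chrX:20869916-20870165 for Timp1, chr9:7344147-7344396 for Mmp12, chr9:7272264-7272513 for Mmp13 and chr10:86300162-86300411 for Timp3. Capitals mark an ETS core (AGGAAG), an AP-1 site (TGAGTCA) and a TATA box (TATAAA), each searched on both strands with no overlap among the matches printed.
Timp1: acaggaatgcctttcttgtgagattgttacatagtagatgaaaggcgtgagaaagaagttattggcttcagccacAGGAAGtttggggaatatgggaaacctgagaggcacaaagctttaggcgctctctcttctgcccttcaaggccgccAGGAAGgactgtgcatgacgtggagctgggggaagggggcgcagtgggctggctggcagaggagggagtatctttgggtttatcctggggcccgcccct
Mmp12: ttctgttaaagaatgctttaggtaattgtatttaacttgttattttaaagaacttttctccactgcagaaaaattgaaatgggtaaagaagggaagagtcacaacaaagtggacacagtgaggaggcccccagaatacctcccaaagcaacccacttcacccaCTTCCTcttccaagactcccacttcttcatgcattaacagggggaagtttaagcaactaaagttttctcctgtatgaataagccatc
Mmp13: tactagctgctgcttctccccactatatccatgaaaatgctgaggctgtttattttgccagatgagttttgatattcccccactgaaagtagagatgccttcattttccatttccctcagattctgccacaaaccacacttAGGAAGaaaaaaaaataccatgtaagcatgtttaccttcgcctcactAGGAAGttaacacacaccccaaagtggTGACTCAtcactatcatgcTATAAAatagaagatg
Timp3: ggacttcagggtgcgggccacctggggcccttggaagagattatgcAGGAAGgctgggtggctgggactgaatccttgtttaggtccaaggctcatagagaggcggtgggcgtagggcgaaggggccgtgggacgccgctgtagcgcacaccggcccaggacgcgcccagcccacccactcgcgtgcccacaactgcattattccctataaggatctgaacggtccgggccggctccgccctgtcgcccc

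The ETS core was the 1 motif of the 3 found in all 4 windows. It began 175 and 99 bases before the start of Timp1, 109 and 62 bases before that of Mmp13 and 204 bases before that of Timp3, and lay on the opposite strand 87 bases before the start of Mmp12. Such a core stood in 29.5% of the 32851 windows of this length in the table. The Mmp13 window alone of the 4 also held the AP-1 site, on the opposite strand 35 bases before the start, and the TATA box, 16 bases before it. Mmp12 has 2 starts in the table, and an AP-1 site lies before the other start only. A match describes the letters of the window and is not evidence that a factor binds there.

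Most of these transcripts lay close to background in whole liver. A spot was called above background when it exceeded the mean of that array's 384 blank spots by 2 SD, a limit of 72.2 scanner units on the CKO array and 69.5 on the control array. By this limit 25 of the 48 genes were above background on both arrays, 5 on the CKO array only, 0 on the control array only and 18 on neither. Over all genes, 2.4% were above background on the CKO array only and 2.48% on the control array only, and 21.9% on neither. In whole tissue, fewer cells of a type and less RNA per cell cannot be told apart. Blank spots averaged 69.3 (SD 1.45) on the CKO array and 67.2 (SD 1.17) on the control array, so raw spots of a gene with no signal are slightly brighter on the CKO array. The plot of spot intensities shows each probe against these limits. The counts depended on the limit. At 3 SD, 4 members were above it on the CKO array only, beside 1.65% of all genes, and 0 on the control array only, beside 2.97%. With the highest negative control spot as the limit, 1 member was on the CKO side, beside 0.456% of all genes, and 4 on the control side, beside 9.29%. The deposited table listed 4 members for the CKO liver only, beside 2.6% of all genes, and 1 for the control liver only, beside 2.34%. Timp1 was the 1 member on the CKO side under all 4 limits. Different probes bind with different strength, and levels of different genes are not set against each other.

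**Figure D1:**
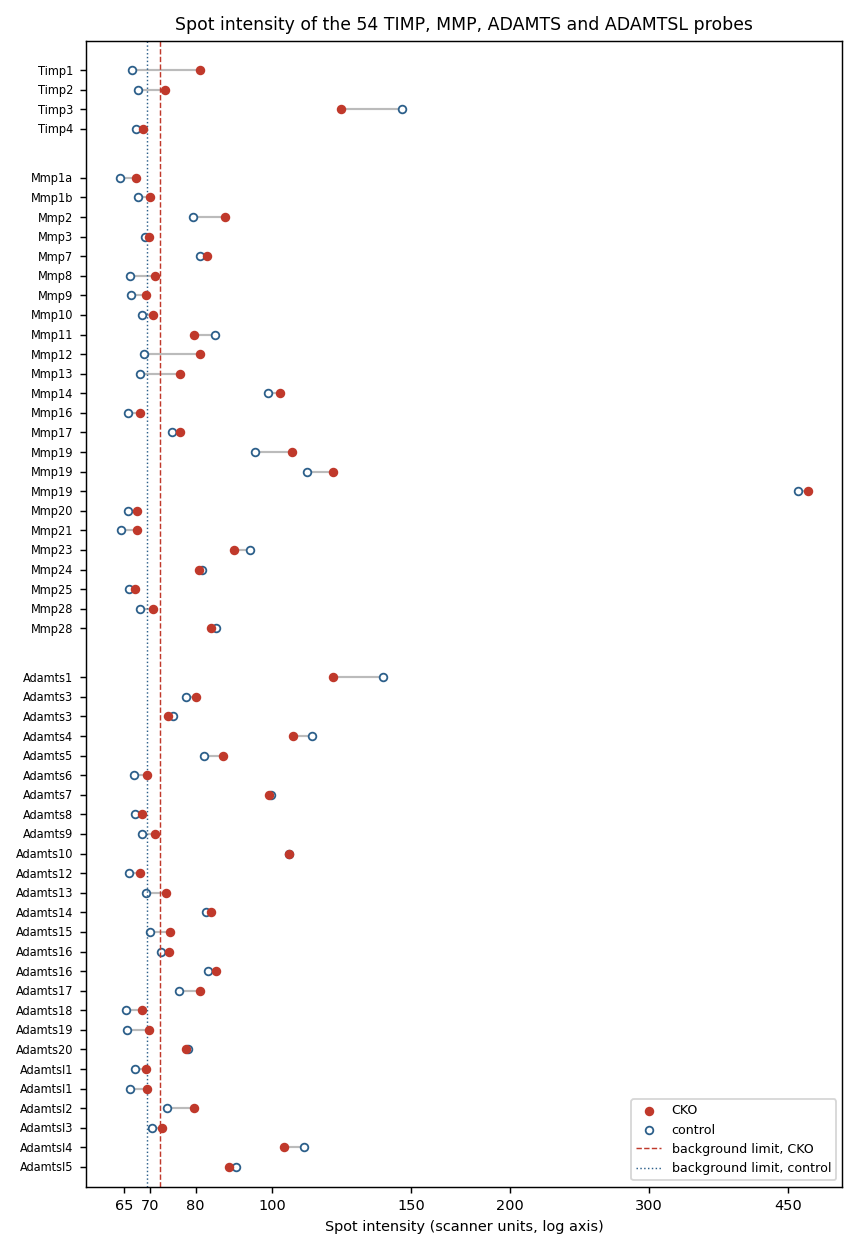
Spot intensity (scanner units, log axis) of the 54 probes on the CKO array (filled red) and the control array (open blue); a gene with several probes has a row for each, and the dashed and dotted lines are the background limits of 72.2 and 69.5. Timp1, Mmp12, Mmp13, Timp2 and Adamts13 lie beyond the limit on the CKO array only, while Timp3 and Adamts1 are dimmer on the CKO array.

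Ratios are log2 of CKO over control after background correction that adds an offset of 50 to every spot, which shrinks the differences of dim genes. The authors' deposited intensities, which carry no such offset, are therefore given beside them. On the offset scale, 0 of the 25 members with signal in both livers reached 2-fold higher in the CKO liver, where 0.636% of all 14143 genes did, and 0 reached 2-fold lower, where 0.0778% of all genes did. After plain subtraction of the blank mean, with no offset, the members' counts were again 0 and 0, beside 3.05% of all genes higher and 0.594% lower. Ratios of these 25 ran from -0.34 to 0.11 with a median of -0.04, beside -0.02 for all genes; 6 were above 0 and 19 below, and 57.7% of all genes were below 0. By subgroup the median was -0.02 over 9 MMP genes and -0.05 over 15 ADAMTS and ADAMTSL genes, and the 1 TIMP gene was at -0.34. The median of the 25 was -0.17 with plain subtraction, beside -0.05 for all genes, with -0.10 for the MMP genes, -0.20 for the ADAMTS and ADAMTSL genes and -0.63 for Timp3; the lowest was then Mmp11 at -0.82 and the highest Adamts15 at 0.67.

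**Figure D2:**
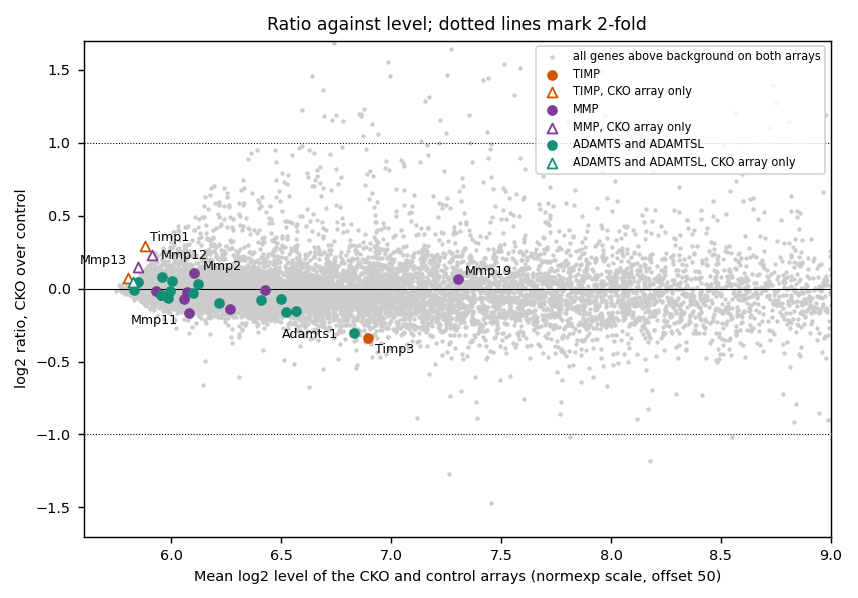
The log2 ratio of CKO over control against the mean log2 level of both arrays, for all genes above background on both arrays (grey), the members among them (filled) and the 5 members above background on the CKO array only (open triangles). No member reaches the dotted 2-fold lines on this offset scale; the lowest is Timp3 at -0.34, and 1519 grey genes lie outside the axes.

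Among the inhibitors, Timp1 was measurable in the CKO liver and not in the control liver, while Timp3 was lower in the CKO liver. TIMP1 is a secreted inhibitor of most MMPs whose transcript is known to be induced in fibrotic liver. The Timp1 spot read 81.0 on the CKO array, 8.10 blank SDs above the blank mean, and 66.4 on the control array, at -0.66 blank SDs from the mean there. No blank spot on the CKO array was as bright, the highest reading 75.6. The deposited table lists 10 for Timp1 in the CKO liver and no value in the control liver, where the lowest value it lists is 2. Against the lowest signal above background on the control array, the Timp1 bound was at least 1.16-fold higher in the CKO liver on the offset scale. With plain subtraction the bound was at least 4.44-fold. Such bounds were made only for genes above the limit on the CKO array alone, and they hold no allowance for noise. A bound above 1 therefore follows largely from that choice and is not a tested lower limit.

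The local background of the Timp1 spot was 64.3 on the CKO array. This was higher than that of 11% of the 500 gene spots nearest to it in brightness. On the control array it was 56.9, higher than that of 19.8% of such spots. The brightest spot adjacent to Timp1 read 73.3 on the CKO array and 68.2 on the control array. Against the local background column the Timp1 ratio was 0.08, beside 0.29 against the blank mean. The part of the surroundings in the Timp1 value was not tested. Timp1 lies inside Syn1, which encodes the neuronal protein synapsin I, and the Syn1 probe gave deposited intensities of 5 in the CKO and 6 in the control liver.

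Timp3 encodes the inhibitor that binds to the matrix itself and also blocks ADAM17 and the aggrecanases of the ADAMTS family. Its spot read 122.3 on the CKO array and 145.9 on the control array, and its deposited intensities were 44 in the CKO and 68 in the control liver. The Timp3 ratio was -0.34, and it ran from -0.63 to -0.31 over the 9 alternatives tried on a single gene's value, below 0 in all of them. All of these re-express the same pair of spots. The filter and probe alternatives could not change the value of this gene with 1 probe, so the shared sign is no independent check. As a guide to size, the middle 95% of the 500 genes nearest in level had ratios of -0.35 to 0.68, so Timp3 lay just inside their lower edge. The local background of the Timp3 spot was 71.4 on the CKO array and 86.4 on the control array, so it too was lower on the CKO array. On each array it was above that of 4.4% of similar spots. The brightest spot adjacent to Timp3, one of Dpys, read 723 on the CKO and 952 on the control array. The part of these surroundings in the Timp3 value was not tested. The Timp3 host gene Syn3 was above background on neither array.

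The other inhibitors carried little signal. Timp2, which inhibits MMPs and also helps membrane-type MMPs to activate MMP2, read 73.2 on the CKO array and 67.7 on the control array. That CKO spot was 2.70 blank SDs above the blank mean and below the highest blank spot, and the deposited table lists 3 in the CKO liver and no value in the control liver. Its bound on the offset scale was at least 1.02-fold higher, and it was not above background on either array at the 3 SD limit. Timp4 was above background on neither array, with spots of 68.7 on the CKO and 67.2 on the control array.

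Of the MMPs that cut elastin and fibrillar collagen, Mmp12 and Mmp13 were measurable in the CKO liver only. Mmp12 encodes macrophage metalloelastase. Its spot read 81.1 on the CKO array, 8.15 blank SDs above the blank mean, and 68.8 on the control array, 1.45 blank SDs above it. The deposited table lists 10 in the CKO liver and no value in the control liver, and the bound was at least 1.16-fold higher on the offset scale and at least 4.47-fold with plain subtraction. With the highest negative control spot as the limit, 72.3 on the CKO array and 67.5 on the control array, the Mmp12 spots passed on both.

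Mmp13 encodes the main interstitial collagenase of rodents. Its spot read 76.4 on the CKO array, 4.92 blank SDs above the blank mean, and 67.9 on the control array, 0.663 blank SDs above it, with a deposited value of 6 in the CKO liver and none in the control liver. The bound was at least 1.08-fold higher on the offset scale and at least 2.68-fold with plain subtraction. Like those of Mmp12, the Mmp13 spots passed the highest negative control spot on both arrays. The local background moved with this spot: it was 73.7 on the CKO array, above that of 100% of the 500 gene spots nearest in brightness, where their median was 65.9, and 58.5 on the control array, above that of 30.8% of such spots. For Mmp12 the local background was 72.2 on the CKO array, above that of 86% of similar spots, and 59.9 on the control array. Against the local background column, Mmp13 had a ratio of -0.21, Mmp12 one of 0.00 and Timp1 one of 0.08. The part of the raised surroundings in the Mmp13 and Mmp12 values was not tested.

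Of the other collagenases and the gelatinases, Mmp2 alone was measurable. Mmp8, the collagenase of neutrophil granules, read 71.1 on the CKO and 66.1 on the control array, and Mmp1a and Mmp1b were also above background on neither array. Mmp9, the gelatinase of neutrophils and macrophages, read 69.2 on the CKO and 66.2 on the control array, at the level of blank spots on both. Mmp2, the gelatinase made by stellate cells and fibroblasts, was above background on both arrays with deposited intensities of 15 in the CKO and 11 in the control liver, a ratio of 0.11. This was the highest offset-scale ratio among the members measured on both arrays; with plain subtraction Mmp2 was at 0.49, below Adamts15 at 0.67 and Adamtsl2 at 0.62. The offset-scale ratio lay within the -0.15 to 0.24 that the middle 95% of genes near its level covered.

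Among the stromelysins and the remaining secreted MMPs, Mmp11 was lower in the CKO liver. Mmp11, known from fibroblasts of remodelled tissue, had deposited intensities of 9 in the CKO and 15 in the control liver and a ratio of -0.16. It lay below the -0.14 at the lower edge of the genes near its level and stayed below 0 in the 8 alternatives that gave it a value, from -0.82 to -0.12. These re-express 1 pair of spots, and the filter and probe alternatives left the Mmp11 value unchanged. The brightest spot adjacent to Mmp11 on the control array was the same Dpys spot, at 952, that lies beside Timp3. The 2 genes are thus not read from unrelated places on the array. On the CKO array the brightest spot adjacent to Mmp11, one of F13b, read 860. Mmp7, matrilysin, had deposited intensities of 11 in the CKO and 12 in the control liver, a ratio of -0.02. Mmp19 was read by 3 probes, with deposited intensities of 337, 41 and 30 in the CKO liver and, in the same order, 341, 38 and 24 in the control liver. Their offset-scale ratios of 0.03, 0.06 and 0.12 averaged 0.07. With the blank mean subtracted and before normalization, the CKO spots were 1.03, 1.14 and 1.32 times the control spots in the same order. Mmp28, epilysin, had 1 of its 2 probes above background, at 12 in the CKO and 15 in the control liver, and a mean ratio of -0.04. Mmp3, Mmp10, Mmp20 and Mmp21 were above background on neither array, although the deposited table lists Mmp3 at 2 in the control liver.

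Of the 6 membrane-bound MMPs, Mmp14 and Mmp17 had equal deposited values in the livers, Mmp24 and Mmp23 were lower in the CKO liver and the other 2 had no measured level. Mmp14, which activates MMP2 at the cell surface, had a deposited intensity of 27 in both livers and a ratio of -0.01. Mmp17, anchored by a lipid, had 6 in both livers and a ratio of -0.02. Mmp24 had 10 in the CKO and 12 in the control liver, a ratio of -0.07 and of -0.38 with plain subtraction. Mmp23 had 17 in the CKO and 23 in the control liver, a ratio of -0.14 and of -0.46 with plain subtraction. Mmp16 and Mmp25 were above background on neither array.

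Mmp12 and Mmp13 are neighbours at the end of a run of 10 MMP genes on chromosome 9, of which 9 had a named probe. In their order along the chromosome these were Mmp13, Mmp12, Mmp1b, Mmp3, Mmp1a, Mmp10, Mmp8, Mmp20 and Mmp7. Only Mmp7, at the other end, was above background on both arrays, and the 6 between were above background on neither. The AP-1 site stood in at least 1 window of 7 of the 9 cluster genes with a RefSeq window, Mmp10, Mmp12, Mmp13, Mmp1a, Mmp1b, Mmp3 and Mmp7, and in 0 of the 24 other member genes with one. Over all windows in the table its share was 4.46%. Of the 7 genes that hold it, Mmp12 and Mmp13 were above background on the CKO array only, Mmp7 on both arrays and the other 4 on neither, and the 2 named cluster genes without it, Mmp8 and Mmp20, on neither.

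**Figure D3:**
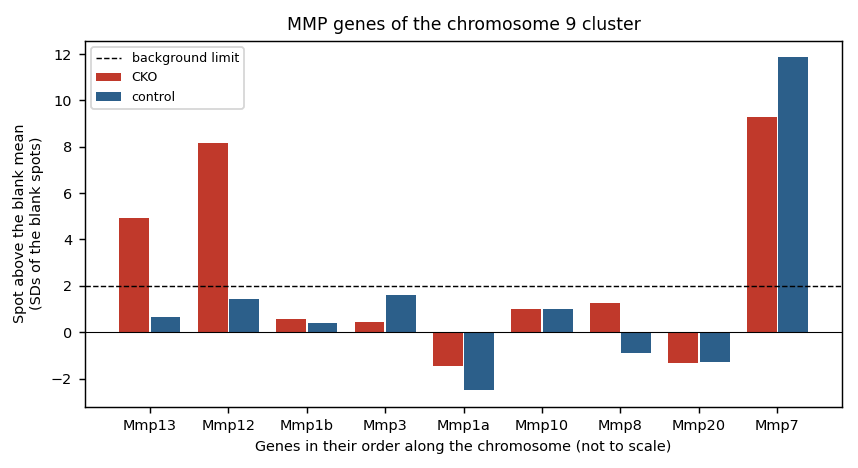
Spot intensity above the blank mean, in SDs of the blank spots, for the 9 named MMP genes of the chromosome 9 cluster in gene order, CKO (red) left of control (blue); the dashed line is the limit of 2 SD. Mmp13 (4.92) and Mmp12 (8.15) pass it on the CKO array only, and Mmp7 passes it on both.

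Of the ADAMTS proteoglycanases measured on both arrays, Adamts1, Adamts4 and Adamts20 were lower in the CKO liver and Adamts5 and Adamts15 higher. Adamts1, which cuts versican and aggrecan, had spots of 119.3 on the CKO and 138.3 on the control array and deposited intensities of 41 in the CKO and 61 in the control liver. Its offset-scale ratio of -0.30 was the lowest of the ADAMTS genes, just inside the -0.31 at the lower edge of the genes near its level. It stayed below 0 in all 9 alternatives, from -0.57 to -0.10, with the value nearest 0 against the local background column. These too re-express 1 pair of spots, and the filter and probe alternatives left the Adamts1 value unchanged. The brightest spot adjacent to that of Adamts1 read 9754 on the CKO and 13498 on the control array. Adamts4, an aggrecanase, had deposited intensities of 31 in the CKO and 39 in the control liver and a ratio of -0.16, and it was at -0.01 against the local background column. Adamts5, the other main aggrecanase and a neighbour of Adamts1 on chromosome 16, had 14 in the CKO and 13 in the control liver, a ratio of 0.03. Adamts15 had 4 in the CKO and 2 in the control liver. These values are whole numbers and few units above 0, so that 2-fold difference, the only such one among 26 members listed on both arrays in the deposited table, rests on 2 units; on the offset scale the Adamts15 ratio was 0.05. By the deposited values 3.81% of all genes reached 2-fold higher; 1.08% reached 2-fold lower, beside 0 members. Adamts20 had 7 in the CKO and 9 in the control liver, a ratio of -0.07, and Adamts8 and Adamts9 were above background on neither array.

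The procollagen and von Willebrand factor proteases were dim on both arrays. Adamts3, which trims procollagen, had 2 probes, at 9 in both livers and at 4 in the CKO and 7 in the control liver, and a mean ratio of -0.05, or -0.45 with plain subtraction. Adamts14, of the same function, had 12 in the CKO and 13 in the control liver, a ratio of -0.03. Adamts13, which cuts von Willebrand factor and is made in liver mainly by stellate cells, read 73.4 on the CKO array and 69.2 on the control array. The control spot missed the background limit and the deposited table lists it at 2, beside 3 in the CKO liver, so its place among the genes measurable in the CKO liver only rests on the limit chosen; its bound was at least 1.02-fold. Its local background on the CKO array was above that of 98.8% of similar spots.

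The remaining ADAMTS genes measured on both arrays had offset-scale ratios within 0.1 of 0. Adamts7, which cuts cartilage oligomeric matrix protein, had deposited intensities of 25 in the CKO and 28 in the control liver, a ratio of -0.07. Adamts10, a protein of fibrillin microfibrils, had 29 in the CKO and 33 in the control liver, also a ratio of -0.07. Adamts17 had 10 in the CKO and 8 in the control liver, a ratio of 0.05. The probes of Adamts16 had 4 in both livers and 13 in the CKO beside 14 in the control liver, a mean ratio of -0.02. Adamts6, Adamts12, Adamts18 and Adamts19 were above background on neither array.

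Of the ADAMTSL proteins, Adamtsl4, which binds fibrillin, was the lowest on the offset scale at -0.16, with deposited intensities of 28 in the CKO and 37 in the control liver. It turned to 0.09 against the local background column. Adamtsl5 had 16 in the CKO and 20 in the control liver, a ratio of -0.10. Adamtsl2, known for binding a latent TGF-beta binding protein and fibrillin, had 9 in the CKO and 6 in the control liver, a ratio of 0.08 and of 0.62 with plain subtraction. Adamtsl3 had 3 in both livers, a ratio of -0.01, and both probes of Adamtsl1 were below the limit on both arrays.

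For each gene list that follows, ratios and counts past 2-fold are on the offset scale unless plain subtraction is named. The plasminogen system, which activates several MMPs, had 3 genes above background on both arrays of 6 measured, with 0 past 2-fold in either direction and a median of -0.01. Its substrate Plg had deposited intensities of 4456 in the CKO and 4919 in the control liver, and the plasmin inhibitor Serpinf2 had 2303 in the CKO and 2034 in the control liver, a ratio of 0.26. Plain subtraction gave the same median, with 0 past 2-fold. Plat, the tissue activator, was above background on the CKO array only, at 4. Of the 9 activators, inhibitors and clearance receptors, 6 were above background on both arrays with a median of 0.02 and 0 past 2-fold. They included Pzp, the broad plasma protease inhibitor (14784 in the CKO and 14280 in the control liver, ratio 0.18), the convertase Furin (31 and 36 in the same order, ratio -0.10), the MMP inducer Bsg (0.07) and the membrane inhibitor Reck (-0.04); with plain subtraction the median was 0.06 and the count past 2-fold was 0. Of 8 measured ADAM proteases, 6 were above background on both arrays with a median of 0.11 and 0 past 2-fold, led by Adam19 (12 in the CKO and 6 in the control liver, ratio 0.17), Adam9 (0.14), Adam10 (0.13) and Adam15 (0.09). Plain subtraction gave a median of 0.16, and Adam19, at 1.05, was past 2-fold. Against the local background column Adam19 was at 0.03.

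All 8 collagen and elastin genes were above background on both arrays, 6 above 0 and 2 below with 0 past 2-fold, and their median was 0.18. Col1a2 had deposited intensities of 114 in the CKO and 59 in the control liver (ratio 0.62), and Col3a1 (0.57), Col5a2 (0.45) and Col5a1 (0.26) followed, while Eln, elastin, was at -0.16 and Col4a1 at 0.00. With plain subtraction the median was 0.57 and Col5a2, at 1.18, was past 2-fold. Its deposited intensities were 42 in the CKO and 18 in the control liver, and against the local background column it was at 0.05. The ADAMTS substrates and partners had 7 of 9 measured genes above background on both arrays, a median of -0.02 and 0 past 2-fold, with the brain proteoglycan Bcan (-0.16), versican Vcan (7 in the CKO and 10 in the control liver, ratio -0.09), Comp (-0.05) and von Willebrand factor Vwf (-0.02) farthest from 0. With plain subtraction their median was -0.17 and the count past 2-fold was 0. Of 12 cytokines and AP-1 subunits known to act on MMP and TIMP genes, 10 were above background on both arrays, with a median of 0.06 and 0 past 2-fold on the offset scale. Il1b had 93 in the CKO and 26 in the control liver (ratio 0.96), and the AP-1 subunits Jun (0.26) and Junb (0.21) were next. With plain subtraction the median was 0.48 and Il1b, at 1.83, was past 2-fold. Against the local background column Il1b was at 0.04. Tnf was above background on the CKO array only, at 5.

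**Figure D4:**
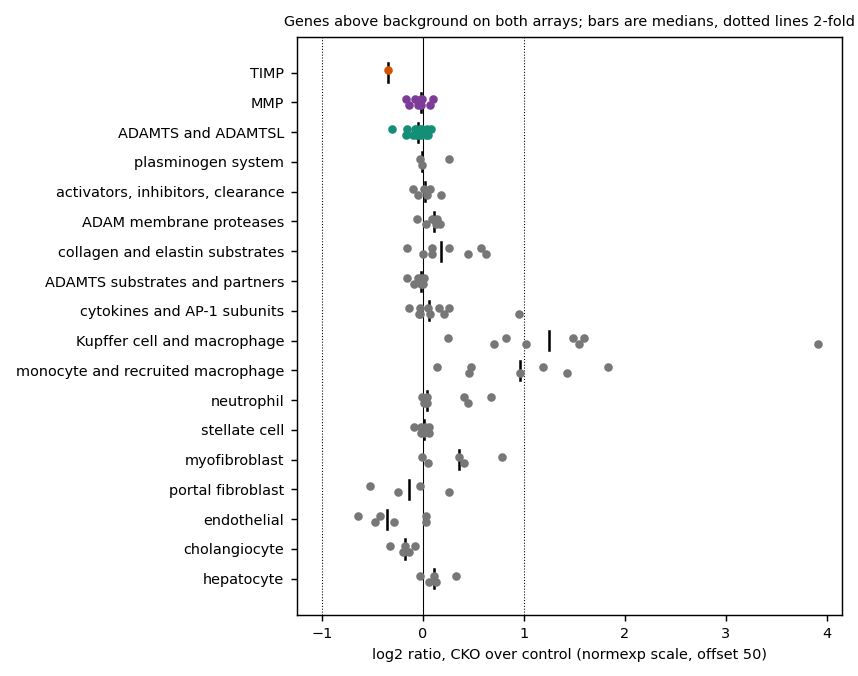
The log2 ratio of CKO over control of each gene above background on both arrays, for the 3 member subgroups (coloured) and the 15 other gene lists (grey), with the median of each as a bar and 2-fold as dotted lines. On this offset scale the members lie between -0.34 and 0.11, while the macrophage and monocyte lists extend past 2-fold on the higher side.

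Markers of cells that can make these enzymes differed between the livers. All 8 Kupffer cell and macrophage markers above background on both arrays were higher in the CKO liver, 5 of them at least 2-fold, and Adgre1 was above background on the CKO array only. Their median was 1.25, led by Marco (3.91), C1qa (1.60), Cd5l (1.55) and C1qb (1.48), and the summed deposited intensity of the 9 was 5969 in the CKO and 1763 in the control liver. Of 8 monocyte and recruited macrophage markers 7 were higher, 3 at least 2-fold, with a median of 0.97 and a sum of 3808 in the CKO and 1248 in the control liver; Itgam was above background on neither array. Lyz2 (1.84), Lgals3 (1.43), Plac8 (1.19) and Ms4a7 (0.97) led this list. With plain subtraction the Kupffer cell median was 1.42 with 6 past 2-fold, and the monocyte median 1.91 with 5. By the 2 SD limit Mmp12 and Timp1 were measurable on the CKO array only, as were Mmp13, Timp2 and Adamts13. Between 2 arrays any such gene shares the direction of these markers, so the shared direction cannot tie a gene to a cell type. The part of cell numbers in any of these values was not tested.

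Neutrophil markers summed to 159 in the CKO and 71 in the control liver, with a median of 0.04 over 7 genes and Ltf above background on neither array. S100a9 (0.67), S100a8 (0.45) and Csf3r (0.40) were the highest of them, and Mpo was above background on the CKO array only, at 3. The neutrophil median was 0.58 with plain subtraction, and Csf3r (2.04) and S100a9 (1.77) were past 2-fold. Against the local background column Csf3r was at 0.14 and S100a9 at 0.32. Mmp8 and Mmp9 were above background on neither array beside these. The 7 stellate cell markers were all above background on both arrays with a median of 0.01 and a sum of 107 in the CKO and 102 in the control liver, farthest from 0 in Reln (-0.09), Pdgfrb (0.06), Des (0.06) and Lrat (0.02). Of 6 myofibroblast markers 5 were above background on both arrays, with a median of 0.35 and a sum of 488 in the CKO and 269 in the control liver; Vim (0.79), Acta2 (0.41), Tagln (0.35) and Postn (0.05) led it and Lox was above background on neither array. With plain subtraction the stellate median was 0.03 and the myofibroblast median 0.82, with 0 past 2-fold in either list.

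Of the markers measured on both arrays, 3 of 4 portal fibroblast, 4 of 6 endothelial and all 5 bile duct markers were below 0, beside 57.7% of all genes. Timp3 and Adamts1 were also below 0, a sign that most genes share. Portal fibroblast markers had a median of -0.14 over 4 genes, with Dcn (-0.52) and Msln (-0.25) below 0 and Thy1 (0.26) above. The list summed to 1082 in the CKO and 1558 in the control liver, of which Dcn alone gave 918 and 1387. The 2 probes of Thy1 averaged deposited intensities of 41 in the CKO and 12 in the control liver. Its ratio with plain subtraction was 0.89. Fbln2 was above background on the control array only. Endothelial markers had a median of -0.36 over 6 genes and a sum of 953 in the CKO and 1401 in the control liver, with Oit3 (-0.64), Clec4g (-0.48), Kdr (-0.43) and Stab1 (-0.29) farthest from 0, Pecam1 (0.03) and Stab2 (0.03) above 0, and Cdh5 above background on neither array. All 5 cholangiocyte markers were below 0, with a median of -0.18 and a sum of 98 in the CKO and 140 in the control liver, and Krt19 (-0.33), Krt7 (-0.20), Epcam (-0.18) and Sox9 (-0.14) led. After plain subtraction the medians were -0.27 for portal fibroblast, -0.43 for endothelial and -0.59 for cholangiocyte markers, and Krt19, at -1.11, was past 2-fold. Against the local background column Krt19 was at -0.05. The part of these cells in the Timp3 and Adamts1 values was not tested. Hepatocyte markers had a median of 0.11 over 5 genes and a sum of 119415 in the CKO and 125270 in the control liver, with Hnf4a (0.33), Alb (0.13), Apoa1 (0.11) and Cyp2e1 (0.07). Alb, Apoa1 and Cyp2e1 (29679 in the CKO and 31102 in the control liver) were lower in the deposited values, against the sign of their ratios. Hnf4a was higher and Ttr lower on both scales. Deposited values and ratios are scaled differently, so a small difference can change sign between them.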

How the data were processed

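Total RNA of liver, 1 sample per genotype grouped by the labels' genotype, was amplified, labelled with Cy5 and hybridised to single-colour arrays per the labels' protocols. Per the file headers, the scanner files hold a spot intensity and a local background (both medians), integrated over 3 gains. The deposited value table holds intensity on a linear scale in whole numbers; its scaling by the authors, and the scanner software, are not stated in the labels or headers. It lists no value for dim probes.

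Spot intensities were corrected against the mean of the blank spots with normexp and an offset of 50 (limma 3.58.1, R 4.3.3), and 4 flagged spots were left out. Gene spots were then quantile-normalized on the log2 scale, and a gene took the mean of its probes. The local background column followed the spot's own signal across gene spots (r = 0.972 on the CKO array and 0.988 on the control array) and was used as an alternative only. "At least" folds compare the CKO value with the higher of the control value and the lowest signal above background on the control array. They were made only for members above background on the CKO array alone and hold no allowance for noise.

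Gene names came from the platform annotation, matched by Entrez ID to RefSeq for all 48 members. RefSeq promoter windows matched 33 of them. Named were all members and, for each list, the genes with the largest absolute ratios, at most 4; Eln, Col4a1, Pecam1 and Stab2 were added after their values were seen. Members, lists and settings were chosen with earlier results of these data known. The ratios were tested on simulated arrays, with changes put only into probes clear of the blank mean on the control array. That test did not cover probes as dim there as those of Timp1, Mmp12 and Mmp13. Nor did it cover the background calls, the "at least" folds or the local background column. The alternatives covered the background, offset, normalization, filter, probes of a gene and deposited values; the other background limits were chosen after seeing the data.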

Additional observations from a re-analysis of the deposited data

How the results depend on the processing

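With 1 array per genotype no replicate could be left out, and no paired analysis was possible because each genotype has a single sample. Under all 9 alternatives the medians of the MMP genes (-0.13 to 0.07) moved by less than 0.23. So did those of the ADAMTS and ADAMTSL genes (-0.20 to -0.01). The limit of 0.23 combines the SDs of log2 positive control spots within each array and is not a spread of observed ratios. Those spots carry no offset, so it is lenient for offset-scale medians of dim genes. The MMP value of 0.07, over genes above the median level, is that of Mmp19 alone. The TIMP median moved to -0.63 with plain subtraction of the blank mean and -0.63 in the deposited values, in which Timp3 is the 1 gene counted, and to 0.0212 with no filter, which counts all 4 genes. The count of members at least 2-fold higher was 0 except in the deposited values, where it was 1 (Adamts15), and the count at least 2-fold lower was 0 under all 9. Over all genes, 90 higher and 11 lower became 431 and 84 with plain subtraction, 419 and 191 against the local background column, 181 and 19 with an offset of 16, and 557 and 158 in the deposited values. Members above background on the CKO array only numbered 5, and 4 with a limit of 3 SD, 4 in the deposited listing and 1 (Timp1) above the highest negative control spot; on the control array only they numbered 0, then 0, 1 (Mmp3) and 4 (Adamts9, Mmp10, Mmp1b and Mmp3) in the same order. For the counts that differ, the cause was not tested. The sign turned in 5 of the 25 members with the local background column, in 1 with median scaling and in 1 with cyclic loess. The median ratio of all genes stayed between -0.05 and 0.00 under the alternatives. Signal over background is the limit here: 23 of the 48 genes had no measured level on at least 1 array.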
